A study of Mus musculus with 16 samples.

Results

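Homologous recombination repairs a DNA double-strand break by copying the intact sister chromatid. The broken ends are cut back by the MRE11-RAD50-NBN complex with CtIP and EXO1, BRCA1 and BRCA2 with their partners assemble a protein filament on the exposed strand, and the filament then searches for the matching sequence. The Fanconi anemia proteins act beside this machinery at crosslinks between the DNA strands, where a core complex attaches ubiquitin to FANCD2 and FANCI, and the kinases ATM and ATR with CHK2 and CHK1 report the damage to the cell cycle. Most of these genes are expressed mainly in cells that replicate their DNA, which in the epidermis are found above all in the basal layer and the hair follicle.

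The transcripts of 35 such genes were followed in mouse epidermis that lacks Sas-4 (gene symbol Cenpj), a protein needed to build centrioles. The members were taken as the rows whose gene symbol equals a listed name, and 33 of the 35 were found among the 49452 genes of each expression table. Fance has no symbol in the tables and was matched by its Ensembl identifier, so it is described here but kept out of the counts. Fanca was not analysed here. All 33 members passed the filter of at least 1 FPKM (fragments per kilobase of transcript, scaled to the mapped fragments of the library, so a level corrected for length and depth) in 4 or more of a stage's 8 libraries.

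RNA was sequenced from 16 libraries, 4 in each of 4 groups, on a mixed FVB/C57BL6 background. The P0 (newborn) groups were keratinocytes dissociated from back skin, either Sas-4 fl/fl with K14-Cre tg/wt (mutant) or Sas-4 fl/wt (control), of which controls 2 and 3 carried K14-Cre tg/wt and controls 1 and 4 were K14-Cre wt/wt. The E13.5 groups were epidermal sheets separated from embryonic skin (E for the day of embryonic development), titled mutant (Sas-4 fl/fl with K14-Cre tg/wt) or titled control (Sas-4 fl/wt with K14-Cre wt/wt). K14-Cre drives the recombinase from the keratin 14 promoter in stratified epithelia, so other cell types in a preparation keep Sas-4. Every control carries 1 floxed allele. In P0 controls 2 and 3, which carry Cre, that allele is open to deletion in keratinocytes, while controls 1 and 4 keep it. The P0 control group therefore mixes both kinds. Cre and the deletion cannot be told apart at E13.5, where no library titled control carries Cre.

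The targeted gene checked the labels first. Cenpj was at 1.52, 1.41, 1.35 and 1.09 FPKM in P0 mutants, against 4.35, 3.35, 3.22 and 4.29 FPKM in P0 controls. At E13.5 it was at 9.17, 8.66, 9.02 and 8.74 FPKM in the libraries titled mutant, against 3.72, 3.85, 3.56 and 3.66 FPKM in the libraries titled control, so the targeted gene was higher where the titles and genotype tags place its deletion. Cdkn1a, which encodes the cell cycle inhibitor p21, lay between 193 and 240 FPKM in P0 mutants, against 89.7 to 111 FPKM in P0 controls, and between 4.97 and 9.28 FPKM in E13.5 libraries titled mutant, against 54.3 to 74.2 FPKM in those titled control. The column names of the E13.5 table give the opposite genotype for all 8 libraries. The E13.5 groups are therefore called by their titles throughout, and every E13.5 direction turns round if the column names are right.

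Differences were tested with limma on log2(FPKM + 1), a scale that understates the change of low genes, and p-values were adjusted by Benjamini-Hochberg over all genes tested in the stage (13033 at P0 and 12866 at E13.5). A gene is called below where its adjusted p was under 0.05. The labels do not say whether each library of a group came from its own animal. Genes of the Y chromosome marked both sexes within every group, so no group came from a single animal. The p-values measure the spread between these libraries, part of which may be technical.

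The promoters of 4 members show the kind of sequence from which these genes are read. They belong to the first 4 members by adjusted p at P0 that have an entry in the RefSeq promoter table (GRCm38.p6), which holds 250 bases before and 50 after each start site and has an entry for 25 of the 33 members. Each is printed on its gene's own strand, with capitals marking any match to an E2F site (TTTCCCGC, TTTGGCGC, TTTGCCGC or TTTCGCGC), a CHR element (TTTGAA or TTTAAA) or a CCAAT box (CCAAT), all searched on both strands. E2F sites and CHR elements are bound by regulators of cell cycle genes, and CCAAT boxes by the factor NF-Y.
Fancg, chr4:43010252-43010551, minus strand: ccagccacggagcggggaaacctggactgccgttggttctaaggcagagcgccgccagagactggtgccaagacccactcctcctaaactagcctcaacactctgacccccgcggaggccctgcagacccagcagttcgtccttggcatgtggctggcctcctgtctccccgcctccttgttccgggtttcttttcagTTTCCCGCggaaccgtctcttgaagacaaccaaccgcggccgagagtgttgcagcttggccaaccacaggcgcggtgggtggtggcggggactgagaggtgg
Chek1, chr9:36726609-36726908, minus strand: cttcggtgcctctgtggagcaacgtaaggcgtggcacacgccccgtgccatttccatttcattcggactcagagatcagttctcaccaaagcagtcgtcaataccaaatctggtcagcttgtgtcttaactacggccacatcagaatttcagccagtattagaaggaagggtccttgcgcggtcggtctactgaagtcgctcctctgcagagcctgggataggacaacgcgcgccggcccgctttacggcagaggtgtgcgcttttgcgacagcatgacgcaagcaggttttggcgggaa
Fancl, chr11:26386834-26387133, plus strand: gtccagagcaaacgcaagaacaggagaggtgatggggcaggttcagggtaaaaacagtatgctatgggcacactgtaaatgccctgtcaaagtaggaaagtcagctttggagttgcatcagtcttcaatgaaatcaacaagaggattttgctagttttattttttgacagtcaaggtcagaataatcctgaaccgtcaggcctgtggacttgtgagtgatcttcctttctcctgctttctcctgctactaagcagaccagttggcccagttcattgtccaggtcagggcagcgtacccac
Brca1, chr11:101551906-101552205, minus strand: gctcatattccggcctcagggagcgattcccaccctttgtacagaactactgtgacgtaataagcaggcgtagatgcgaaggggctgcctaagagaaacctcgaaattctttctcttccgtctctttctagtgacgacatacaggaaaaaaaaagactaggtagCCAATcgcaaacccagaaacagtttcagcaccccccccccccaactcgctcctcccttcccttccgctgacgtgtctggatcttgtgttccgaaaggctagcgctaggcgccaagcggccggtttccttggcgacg

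The Fancg window held an E2F site whose first base lies at -52 from the start site, and the Brca1 window held a CCAAT box at -86. The Chek1 and Fancl windows held none of the letters searched, but a site that runs past a window's edge is missed. The Chek1 window ends in gcgggaa, the first bases of GCGGGAAA, which is the reverse complement of TTTCCCGC. The start sites of Chek1 and Fancl lie 407 and 949 bases from the gene starts of the expression tables, against 205 bases for Fancg and 0 for Brca1. The windows are therefore those of RefSeq's start and not necessarily of the one used in these cells.

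An E2F site stood in 6 of the 25 member promoters (24.0%), against 2.3% of the 32851 promoters in the table. The 6 sites are shown with their surroundings because E2F sites, like the CCAAT boxes given below, stood in a larger share of the member promoters than of promoters at large, a description with no test. Each line is read on the gene's strand and has the site in capitals (its reverse complement where the site lies on the other strand).
Bard1, chr1:71103163-71103192, minus strand: ccgccgctcagTTTCCCGCtcaggaagttt
Brca2, chr5:150522442-150522471, plus strand: tttaggccacaGCGGGAAAcagacacacac
Rad51c, chr11:87404477-87404506, minus strand: gtttccagcgcTTTCGCGCctcttgctcta
Fancg, chr4:43010335-43010364, minus strand: tttcttttcagTTTCCCGCggaaccgtctc
Chek2, chr5:110839820-110839849, plus strand: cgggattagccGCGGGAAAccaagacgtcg
Topbp1, chr9:103305187-103305216, plus strand: ccgctcggttgGCGCGAAAgtcggttcccg

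CCAAT boxes were found in 60.0% of the member promoters, against 37.4% of all promoters, and CHR elements in 4 of the 25, against 27.6% of all promoters. Among the 11 members with an entry that were lower in P0 mutants, E2F sites stood in 3 (27.3%), a share like that of all members with an entry. Of the 6 genes printed, Fancg, Chek2 and Bard1 were lower in P0 mutants, Brca2 was higher, and Rad51c and Topbp1 did not pass the test, as the values below show.

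In newborn keratinocytes, 16 of the recombination and Fanconi genes passed the test as lower in Sas-4 mutants on the deposited values, and 6 did so after the scaling described below. The 16 make up 48.5% of the 33 members, and 1 member was higher, beside 30.7% lower and 11.7% higher among all genes tested (42.3% called in either direction). The largest falls were those of Rad54b, Fancg and Fancl, to between 0.582 and 0.606 of the control mean. No member reached a fold of 2, against 7.96% of all genes tested that did so with p no larger than 0.05 before adjustment.

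The whole P0 transcriptome leaned the same way. The median log2 fold change of all genes tested was -0.15, against -0.34 for the members, and 65.8% of all genes lay below 0, against 97.0% of the members (32 of 33). Median-of-ratios scaling, which sets the median gene to no change, moved the members' median to -0.21 and left 26 of 33 below 0 (78.8%, beside 50.4% of all genes). Under that scaling 6 members were lower and 1 was higher, beside 19.3% lower and 18.9% higher among all genes, and all 7 of them were also called on the deposited values. Quantile normalization gave a members' median of -0.08, against -0.01 for all genes, with 5 lower and 1 higher beside 19.3% and 17.5%. The 6 members lower under both the deposited values and median-of-ratios scaling were Fancg, Rad54b, Rbbp8, Chek1, Fancl and Brca1.

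**Figure D1:**
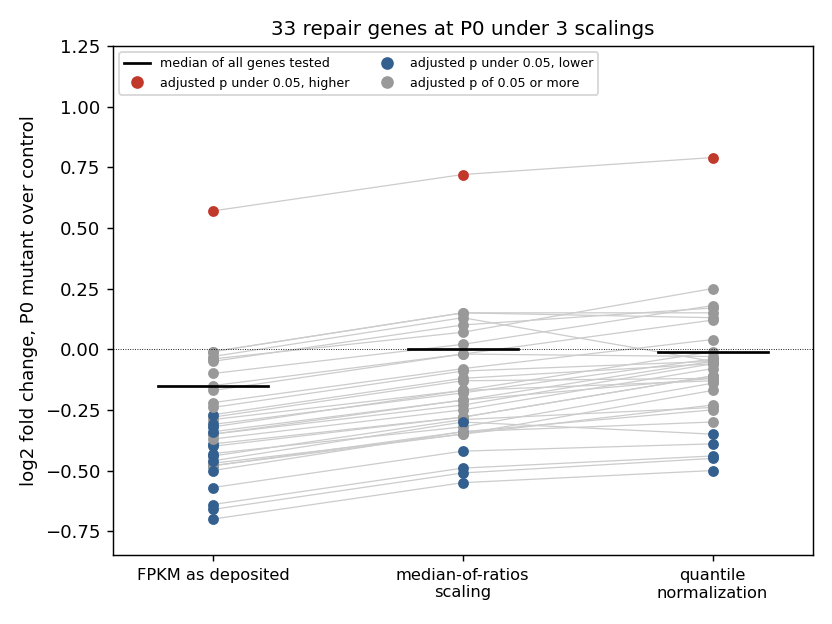
The log2 fold change of P0 mutant over control (vertical axis) is drawn for each of the 33 members under 3 scalings (horizontal axis), with grey lines joining a gene to itself and a black bar at the median of all genes tested. The bar stands at -0.15 for the values as deposited, and lower calls number 16, 6 and 5 from left to right, while Brca2 is the 1 higher call under each scaling.

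The P0 libraries differed in several ways besides the member genes. Mutant 4 stood apart from the other mutants on the second principal component (-37.57, against 5.75 to 20.54) and had the largest FPKM sum, and without it 17 members were lower and 1 higher (34.9% of all genes lower). Genes of the Y chromosome marked 3 of 4 mutants and 1 of 4 controls as male. Relative read depth, recovered from the steps of low values, ran from 0.951 to 1.112 in mutants and from 0.927 to 1.002 in controls. The summed FPKM of keratinocyte markers was 37463 to 48899 in mutants, against 29343 to 34213 in controls, with Krt14 and Krt5 among the abundant transcripts of every library. Of the 9 markers 1 was higher, 1 lower and 7 not called (median log2 fold change 0.05). Krt14 was the higher one, and Krt15, a keratin of basal and follicle cells, was the lower one at 136 ± 37 FPKM in mutants and 1588 ± 124 FPKM in controls (SD, n = 4 each, limma adjusted p = 2.27e-06).

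Marker genes of other cells also differed between the P0 groups. Summed hair matrix and placode markers lay between 22.1 and 30.6 FPKM in mutants, against 121 to 155 FPKM in controls (5 of 5 tested lower, Dsg4 under 1 FPKM in all libraries). Myeloid and Langerhans markers lay between 25.1 and 29.6 FPKM in mutants, against 109 to 158 FPKM in controls (5 of 5 tested lower, Cd207 under 1 FPKM throughout). Fibroblast markers lay between 79.6 and 163 FPKM in mutants, against 174 to 268 FPKM in controls (2 of 3 tested lower). Melanocyte markers lay between 293 and 643 FPKM in mutants, against 201 to 267 FPKM in controls (4 of 5 tested higher), and T cell markers between 37 and 53.7 FPKM in mutants, against 36.2 to 42.2 FPKM in controls (Thy1 higher, Cd3g and Cd3e lower). Endothelial markers summed to 1.30 to 1.59 FPKM in mutants, against 0.35 to 0.65 FPKM in controls, and muscle markers to 0.08 to 0.11 FPKM in mutants, against 0.18 to 0.37 FPKM in controls, with no gene of either list high enough to be tested and Myod1 at 0 in all libraries. Erythroid markers lay between 12.5 and 158 FPKM in mutants, against 15.2 to 324 FPKM in controls, without a call. In bulk libraries fewer cells of a type and less RNA per cell cannot be told apart, and the part that cell composition has in the member results was not tested.

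BRCA1, BARD1, PALB2, BRCA2 and BRIP1 form complexes that act on resected DNA. At P0, 3 of these 5 genes were lower in mutants, 1 was higher and 1 was not called, with a median log2 fold change of -0.35 (-0.23 after median-of-ratios scaling). Brca1 (chr11:101488764-101551955, minus strand, mm10), the ubiquitin ligase subunit that opens this route of repair, was at 5.87, 5.12, 6.51 and 4.29 FPKM in mutants, against 7.1, 8.09, 7.9 and 8.64 FPKM in controls. Every mutant lay below every control, and the log2 fold change was -0.48 (SE 0.12, limma adjusted p = 0.0113, and 0.0435 after median-of-ratios scaling). Bard1, the obligate partner of Brca1, was at 1.8, 2.46, 2.28 and 2.09 FPKM in mutants, against 2.79, 2.9, 3.21 and 3.14 FPKM in controls. These groups did not overlap either (log2 fold change -0.35, SE 0.10, limma adjusted p = 0.0181), but the adjusted p was 0.087 after scaling. Brip1, the helicase that binds Brca1, was at 1.47, 2.2, 2.43 and 1.79 FPKM in mutants, against 2.77, 2.89, 2.8 and 3.5 FPKM in controls (log2 fold change -0.43, SE 0.12, limma adjusted p = 0.0197, and 0.0626 after scaling).

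Brca2 (chr5:150522630-150570329, plus strand, mm10), which acts downstream of BRCA1 on resected DNA, was the single member called higher at P0. It is named because it stands alone in its direction, although its groups overlapped. Its levels were 7.12, 8.65, 10.2 and 15 FPKM in mutants, against 5.95, 6.18, 7.29 and 5.89 FPKM in controls. The highest control lay above the lowest mutant, and mutant 4 was well above the other mutants. The log2 fold change was 0.57 (SE 0.19, limma adjusted p = 0.0347), 0.72 after median-of-ratios scaling, and the call was lost without the controls that lack Cre, without the filter, and without control 1, control 2, control 4 or mutant 3 (highest limma adjusted p = 0.21). Palb2, the bridge between BRCA1 and BRCA2, averaged 3.16 ± 0.492 FPKM in mutants and 3.45 ± 0.284 FPKM in controls (SD, n = 4 each) and was not called.

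RAD51B, RAD51C, RAD51D, XRCC2 and XRCC3 are mediators that help the filament of recombination to form and hold. At P0, 2 of the 5 were lower, none was higher, and the median log2 fold change was -0.39 (-0.28 after median-of-ratios scaling, with no call). Rad51b averaged 1.57 ± 0.211 FPKM in mutants and 2.39 ± 0.562 FPKM in controls (SD, n = 4 each), and Xrcc2 averaged 2.43 ± 0.365 FPKM in mutants and 3.55 ± 0.655 FPKM in controls. Both calls stood close to the threshold, with limma adjusted p-values of 0.0382 and 0.0353. Rad51c averaged 2 ± 0.689 FPKM in mutants and 3.11 ± 0.596 FPKM in controls, just outside the threshold with a limma adjusted p of 0.0532. Rad51d averaged 7.65 ± 0.783 FPKM in mutants and 7.95 ± 0.72 FPKM in controls, and Xrcc3 averaged 5.47 ± 1.07 FPKM in mutants and 7.22 ± 0.932 FPKM in controls without overlap of its groups (limma adjusted p = 0.0728).

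RAD54L and RAD54B are motor proteins that drive strand exchange, RAD52 anneals single strands, and RAD51AP1 stimulates strand pairing. Of these 4 genes, 3 were lower in P0 mutants and none was higher. Rad54b (chr4:11558922-11615805, plus strand, mm10) was at 6.58, 7.33, 7.35 and 6.56 FPKM in mutants, against 9.88, 12.2, 12.5 and 13.1 FPKM in controls. The mutants were tightly grouped and all lay below the lowest control, with a log2 fold change of -0.70 (SE 0.10, limma adjusted p = 0.000628), or -0.55 after scaling (adjusted p = 0.00197). Rad54b shares 35.8% of its exonic bases with Fsbp, a gene on the same strand at 0.367 FPKM in mutants and 0.671 FPKM in controls, and reads of the shared exons cannot be assigned to either gene. Rad52 averaged 8.18 ± 1.91 FPKM in mutants and 11.3 ± 0.361 FPKM in controls (SD, n = 4 each), and Rad54l averaged 8.99 ± 1.18 FPKM in mutants and 11.4 ± 1.04 FPKM in controls. Both were called on the deposited values (limma adjusted p = 0.0308 and 0.0401) and not after scaling (0.16 and 0.261), and Rad51ap1, at 12.6 ± 2.26 FPKM in mutants and 15.4 ± 1.14 FPKM in controls, was not called. Rad54l shares 15.4% of its exonic bases with Lrrc41 on the opposite strand, at 17.8 FPKM in mutants and 17.9 FPKM in controls.

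Of the Fanconi core complex genes, Fancg and Fancl were lower at P0, and Fancb, Fancc, Fancf and Fancm were not called. The median log2 fold change of the 6 was -0.43 (-0.30 after median-of-ratios scaling, with the same number of lower calls, 2). Fancg (chr4:43002343-43010506, minus strand, mm10), a scaffold subunit of the core complex, was at 7.64, 5.99, 7.28 and 6.8 FPKM in mutants, against 10.9, 11.9, 12.4 and 10.9 FPKM in controls. Its groups were well apart, and it had the smallest adjusted p of all members (log2 fold change -0.66, SE 0.09, limma adjusted p = 0.000554, and 0.00276 after scaling). Fancl (chr11:26386135-26471876, plus strand, mm10), the subunit that attaches ubiquitin to FANCD2, was at 6.71, 7.98, 8.48 and 7.32 FPKM in mutants, against 15, 10.7, 9.65 and 15 FPKM in controls. The controls were spread far more widely than the mutants but did not overlap with them (log2 fold change -0.64, SE 0.15, limma adjusted p = 0.00815, and 0.0272 after scaling).

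Fancl shares 13.7% of its exonic bases with Vrk2 on the opposite strand, at 10.3 FPKM in mutants and 13.2 FPKM in controls. The sources used here do not say whether the libraries kept strand, so reads of the pair cannot be told apart on the shared bases. Fancb averaged 2.45 ± 0.597 FPKM in mutants and 3.44 ± 0.492 FPKM in controls, and Fancm, the translocase that anchors the core complex to DNA, averaged 2.77 ± 0.531 FPKM in mutants and 3.58 ± 0.128 FPKM in controls (SD, n = 4 each). Both had groups that did not overlap without passing the test (limma adjusted p = 0.0631 and 0.0703). Fancc, at 4.51 ± 1.35 FPKM in mutants and 6.62 ± 1.42 FPKM in controls, and Fancf, at 1.85 ± 0.35 FPKM in mutants and 1.91 ± 0.123 FPKM in controls, overlapped. Fance, kept outside the counts, averaged 29.4 ± 5.69 FPKM in mutants and 26.5 ± 1.04 FPKM in controls and was not called (limma adjusted p = 0.415).

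FANCD2 and FANCI are the pair on which the core complex acts. Fancd2 was at 2.33, 2.72, 2.75 and 2.41 FPKM in P0 mutants, against 3.31, 3.39, 3.3 and 3.97 FPKM in P0 controls. The groups did not overlap (log2 fold change -0.34, SE 0.09, limma adjusted p = 0.0163), and the adjusted p was 0.0839 after median-of-ratios scaling. Its partner Fanci averaged 3.85 ± 0.816 FPKM in mutants and 4.36 ± 0.512 FPKM in controls (SD, n = 4 each), with a limma adjusted p of 0.396. Fanci shares 921 of its 5774 exonic bases with Polg on the opposite strand, which was at 28.8 FPKM in mutants and 35.3 FPKM in controls, several times its own level.

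Of the 6 genes for end resection and for taking recombination intermediates apart, Rbbp8 and Rad50 were lower at P0 and none was higher. Rbbp8, which encodes CtIP, the cofactor that starts resection, was at 16.9, 20.3, 19.1 and 18 FPKM in mutants, against 25, 27.8, 26.4 and 24.4 FPKM in controls. Every mutant lay below every control (log2 fold change -0.46, SE 0.08, limma adjusted p = 0.00185, and 0.0136 after median-of-ratios scaling). Rad50, the ATPase of the MRE11 complex, averaged 8.25 ± 0.644 FPKM in mutants and 10.1 ± 0.799 FPKM in controls (SD, n = 4 each), with a limma adjusted p of 0.0406, or 0.315 after scaling. The other subunits were closer to the controls, Mre11a at 14.7 ± 2.49 FPKM in mutants and 16.6 ± 1.08 FPKM in controls, and Nbn at 16.3 ± 1.67 FPKM in mutants and 16.4 ± 1.73 FPKM in controls. Exo1, a resection nuclease, was at 13.6 ± 1.53 FPKM in mutants and 13.7 ± 1.97 FPKM in controls, and Blm, a helicase that dissolves joined molecules, was at 8.94 ± 1.82 FPKM in mutants and 10.7 ± 1.45 FPKM in controls.

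Of the checkpoint signalling genes, Chek1, Chek2 and Atm were lower at P0, and Atr and Topbp1 were not called. Chek1 (chr9:36708482-36727065, minus strand, mm10), the kinase activated by ATR at stalled forks, was at 8.86, 9.23, 11.5 and 7.45 FPKM in mutants, against 13.2, 15.2, 13.9 and 14.4 FPKM in controls. The groups did not overlap (log2 fold change -0.57, SE 0.12, limma adjusted p = 0.00455, and 0.0146 after median-of-ratios scaling). Chek2, the kinase activated by ATM at breaks, was at 6.91, 6.73, 8.05 and 9.67 FPKM in mutants, against 11.1, 11.5, 9.72 and 13.4 FPKM in controls. The highest mutant lay only just below the lowest control (log2 fold change -0.50, SE 0.13, limma adjusted p = 0.0139), and the adjusted p was 0.0697 after scaling. Atm averaged 3.44 ± 0.524 FPKM in mutants and 4.5 ± 0.403 FPKM in controls (SD, n = 4 each), with the adjusted p nearest the threshold among the calls (limma, 0.0463). Atr averaged 4.5 ± 0.219 FPKM in mutants and 5.42 ± 0.475 FPKM in controls without overlap or a call (limma adjusted p = 0.0738), and its activator Topbp1, the most abundant member, averaged 52.1 ± 5.41 FPKM in mutants and 53.1 ± 3.59 FPKM in controls.

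**Figure D2:**
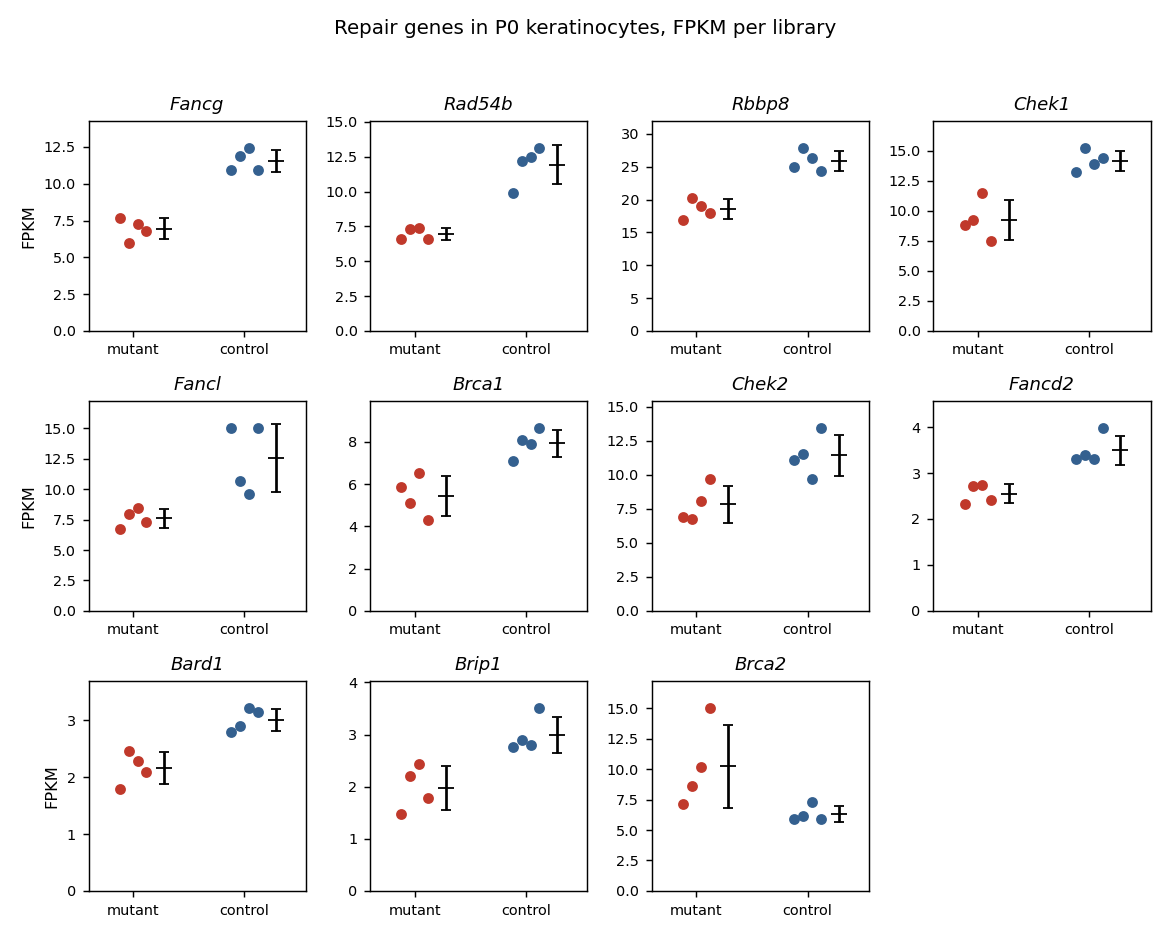
FPKM in each P0 library (vertical axes, linear from 0) is drawn for the 10 members with values given for every library by rule and for Brca2, mutants left and controls right, with the mean and SD of each group (n = 4) beside the points. In the 10 lower members every mutant lies below every control, while the Brca2 groups overlap and its mutants reach 15 FPKM.

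Across the members, 19 had all 4 mutants below all 4 controls at P0 and none the reverse, beside 31.8% and 11.7% of all genes tested. Of these 19, 15 were called, and Xrcc3, Fancb, Fancm and Atr were not. The summed FPKM of the 33 members was 256, 271, 282 and 267 in mutants, against 312, 336, 321 and 341 in controls.

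The number of calls at P0 depended on which libraries were compared. With only the Cre-carrying controls kept, 5 members were lower and none higher, a share of members (15.2%) below the 16.7% of all genes that were lower in that comparison. Without control 2, control 4 or mutant 3 the calls numbered 10, 9 and 11, all lower, beside 24.1%, 25.0% and 26.5% lower among all genes. Fancg, Rad54b, Rbbp8 and Chek1 were called in each of the alternatives tried, with largest adjusted p-values of 0.00768, 0.00431, 0.016 and 0.0402.

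Genes of neighbouring pathways are given for comparison. Of 43 other recombination and crosslink repair genes, 16 were lower (37.2%, beside 30.7% of all genes tested) and 1 was higher in P0 mutants, with a median log2 fold change of -0.25. After median-of-ratios scaling 5 were lower and 4 higher (median -0.10), beside 19.3% lower and 18.9% higher among all genes. Ercc1, a subunit of the nuclease that cuts at crosslinks, was higher at 33.9 ± 5.76 FPKM in mutants and 20.3 ± 1.77 FPKM in controls (SD, n = 4 each, limma adjusted p = 0.0019). Dna2, a resection nuclease, was lower at 6.12 ± 0.286 FPKM in mutants and 9.06 ± 0.922 FPKM in controls, and so was the helicase gene Wrn, at 2.46 ± 0.459 FPKM in mutants and 4.2 ± 0.241 FPKM in controls. Slx1b, for a nuclease subunit that resolves crossed strands, was lower as well, at 4.84 ± 0.29 FPKM in mutants and 7.32 ± 0.925 FPKM in controls.

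End joining, the route that seals breaks without a template, had 10 of 19 genes lower (52.6%) and none higher (median -0.27). After scaling 3 were lower and none higher (median -0.11), beside 19.3% lower and 18.9% higher among all genes. Parp1, a break sensor, was at 37.6 ± 4.42 FPKM in mutants and 58.8 ± 2.97 FPKM in controls (SD, n = 4 each, limma adjusted p = 0.000663). Trp53bp1, whose product opposes BRCA1 at break ends, was at 9.42 ± 0.956 FPKM in mutants and 14.4 ± 1.31 FPKM in controls. Its effectors Rif1 and Mad2l2 were also lower, at 8.47 ± 1.05 FPKM in mutants and 13 ± 0.353 FPKM in controls for Rif1, and at 8.33 ± 0.726 FPKM in mutants and 11.3 ± 0.723 FPKM in controls for Mad2l2, whose call was lost after scaling (limma adjusted p = 0.0542).

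Of 27 replication licensing and fork genes 15 were lower (55.6%) and 1 was higher (median -0.32). After scaling 7 were lower and 1 was higher (median -0.16), beside 19.3% lower and 18.9% higher among all genes. Among the subunits of the replicative helicase, Mcm2 was at 49.3 ± 3.54 FPKM in mutants and 72.5 ± 5.33 FPKM in controls, Mcm6 at 57.4 ± 9.92 FPKM in mutants and 90.3 ± 4.95 FPKM in controls, and Mcm5 at 66.2 ± 6.17 FPKM in mutants and 90.5 ± 6.27 FPKM in controls (SD, n = 4 each, limma adjusted p = 0.000696, 0.0025 and 0.00304). Lig1, the ligase of the lagging strand, was lower at 39.1 ± 4 FPKM in mutants and 54.5 ± 3.54 FPKM in controls. Mitotic cycle genes did not lean the same way, with 2 of 25 lower, 1 higher and a median of -0.02 (0.14 after scaling, when 2 were higher and none lower). Cdc20, the activator of anaphase, was higher at 99.4 ± 22.2 FPKM in mutants and 68.6 ± 3.5 FPKM in controls, while Mki67, which marks dividing cells, and Bub1b, a spindle checkpoint gene, were lower (limma adjusted p = 0.0343 and 0.0407) and lost the call after scaling (0.193 and 0.606).

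In E13.5 epidermis few members differed. Called members numbered 5 of 33 (15.2%, beside 25.2% of all genes tested), with 3 higher in libraries titled mutant and 2 lower, beside 11.8% higher and 13.4% lower among all genes. By column name the same 5 genes were 2 higher and 3 lower. The median log2 fold change was 0.00 for the members and 0.00 for all genes tested. It was below 0 for 16 members (48.5%, beside 49.7% of all genes), and for 15 after median-of-ratios scaling (45.5%, beside 48.9%). Neither median-of-ratios scaling (12.3% higher and 13.4% lower among all genes) nor quantile normalization (12.7% and 11.9%) altered the 5 member calls. No member reached a fold of 2, against 1.13% of all genes tested that did so with p no larger than 0.05 before adjustment.

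Rad51d, the filament mediator that showed little difference at P0, had the smallest adjusted p among members at E13.5. It was at 8.06, 7.44, 6.84 and 7.84 FPKM in libraries titled mutant, against 9.56, 10.8, 10.1 and 10.1 FPKM in those titled control. The groups did not overlap and the log2 fold change was -0.38 (SE 0.06, limma adjusted p = 0.00246), or 0.38 by column name. Rad54b was at 27.4, 27.4, 26.4 and 26.9 FPKM in libraries titled mutant, against 24, 23, 22.3 and 21.8 FPKM in those titled control. Its difference was small against its level but larger than the spread within either group (log2 fold change 0.24, SE 0.04, limma adjusted p = 0.00295), and it was -0.24 by column name. The overlapping gene Fsbp was at 1.37 FPKM in libraries titled mutant and 1.08 FPKM in those titled control.

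Chek2 was at 12.7, 13.4, 14.7 and 14.4 FPKM in libraries titled mutant, against 17, 17.2, 17.6 and 17 FPKM in those titled control. The libraries titled control lay within 1 FPKM of each other and above all libraries titled mutant (log2 fold change -0.30, SE 0.05, limma adjusted p = 0.00334), and the value was 0.30 by column name. Fancg was at 15.41, 15.31, 15.9 and 18 FPKM in libraries titled mutant, against 14.16, 13.16, 13.55 and 13.43 FPKM in those titled control. It was higher by title without overlap (log2 fold change 0.23, SE 0.06, limma adjusted p = 0.0169) and lower by column name, at -0.23. Brca1 was at 17.2, 17.4, 18.2 and 16.6 FPKM in libraries titled mutant, against 15.6, 15.5, 16.3 and 15.3 FPKM in those titled control (log2 fold change 0.14, or -0.14 by column name, SE 0.04, limma adjusted p = 0.037).

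Libraries 3 and 4 of those titled control at E13.5 carry the number 67 in their column names, and the other 6 libraries share another number. What the number stands for is not stated. Without the 2 libraries numbered 67, Rad51d, Rad54b and Chek2 were still called, and Fancg and Brca1 were not (largest limma adjusted p over the alternatives 0.114 and 0.124). The Brca1 call was lost in 9 of its 18 alternatives.

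**Figure D3:**
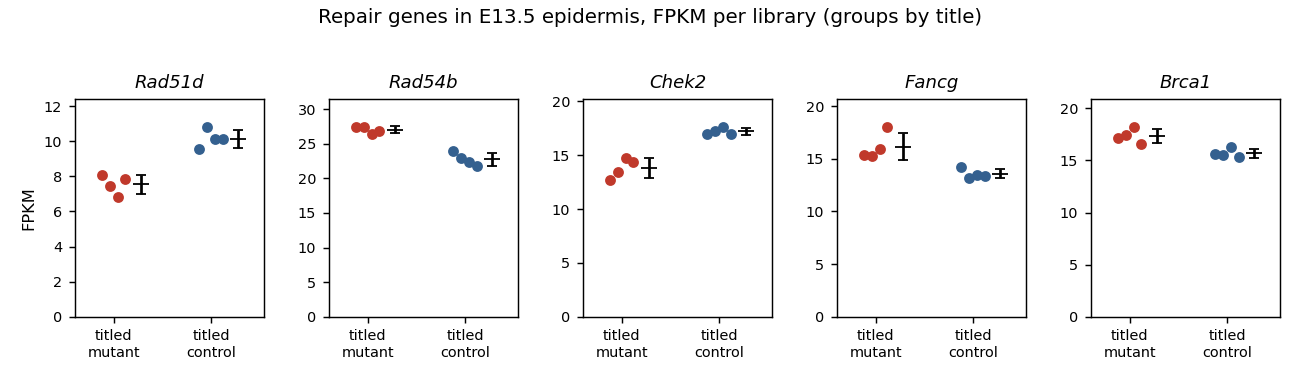
FPKM in each E13.5 library (vertical axes, linear from 0) is drawn for the 5 members called, libraries titled mutant left and libraries titled control right, with the mean and SD of each group (n = 4). By title Rad51d and Chek2 lie lower and Rad54b, Fancg and Brca1 higher, and each direction turns round by column name.

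By role, the E13.5 calls were scattered over the BRCA complexes (1 higher of 5), the filament mediators (1 lower of 5), the strand exchange and annealing genes (1 higher of 4), the Fanconi core complex (1 higher of 6) and checkpoint signalling (1 lower of 5), with none among FANCD2-FANCI or the resection genes. Palb2, at 8.05 ± 0.368 FPKM in libraries titled mutant and 7.26 ± 0.0986 FPKM in those titled control, and Fancf, at 3.13 ± 0.0487 FPKM in libraries titled mutant and 2.86 ± 0.0995 FPKM in those titled control (SD, n = 4 each), had groups that did not overlap without passing the test. In all, 7 members had groups that did not overlap, 5 above and 2 below by title (21.2%, beside 28.1% of all genes tested). The 28 members not called had log2 fold changes from -0.17 (Fanci) to 0.28 (Brca2) and limma adjusted p-values from 0.0725 upwards. The 33 members together gave 556, 566, 596 and 573 FPKM in libraries titled mutant, against 567, 562, 579 and 576 FPKM in those titled control, so their summed level overlapped between the groups. Fance averaged 24.4 ± 1.65 FPKM in libraries titled mutant and 21.2 ± 2.32 FPKM in those titled control (limma adjusted p = 0.0908).

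The calls in the neighbouring pathways at E13.5 are given by title. Of the other recombination genes 3 were higher and 3 lower of 43, of the end joining genes 5 higher and 1 lower of 19, of the replication genes 2 higher and 5 lower of 27, and of the mitotic cycle genes 5 higher and 2 lower of 25. Called genes made up 31.6% of the end joining list, 25.9% of the replication list and 7 of 25 of the mitotic list, beside 25.2% of all genes tested. They made up 6 of 43 of the other recombination genes. In lists this short a single gene moves the share by several points, and the shares were not tested against that of all genes. Faap100, a Fanconi core complex partner, was at 24.1 ± 0.569 FPKM in libraries titled mutant and 19 ± 0.499 FPKM in those titled control (SD, n = 4 each, limma adjusted p = 0.000359). Rpa3, a subunit of the protein that coats single-stranded DNA, was lower at 42.5 ± 1.85 FPKM in libraries titled mutant and 51.7 ± 4.2 FPKM in those titled control. Bre, a subunit of the BRCA1-A complex, was lower and the crosslink nuclease gene Fan1 was higher by title (limma adjusted p = 0.0252 and 0.0316).

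In end joining, the ligase cofactor gene Xrcc4 was lower by title at 6.61 ± 0.361 FPKM in libraries titled mutant and 8.37 ± 0.28 FPKM in those titled control (SD, n = 4 each), and Polm, Dclre1c and Parp1, for a gap-filling polymerase, the nuclease Artemis and a break sensor, were higher (limma adjusted p = 0.0091, 0.0158 and 0.0164). In replication, the ribonucleotide reductase genes Rrm2 and Rrm1 were lower, at 126 ± 5.81 FPKM in libraries titled mutant and 151 ± 4.25 FPKM in those titled control for Rrm2 (limma adjusted p = 0.00194, and 0.00624 for Rrm1), while Tk1, for thymidine kinase, and Pole, for the leading-strand polymerase, were higher (limma adjusted p = 0.00566 and 0.0084). Among mitotic cycle genes, Cdc20 was lower at 104 ± 0.483 FPKM in libraries titled mutant and 125 ± 4.42 FPKM in those titled control, and Mki67, Foxm1 and Mybl2 were higher (limma adjusted p = 0.00407, 0.00879 and 0.0217). Each of these directions turns round by column name.

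Among markers at E13.5, Krt5 was at 1011 FPKM or more and Krt14 at 910 FPKM or more in every library. Summed keratinocyte markers were 2819 to 3515 FPKM in libraries titled mutant, against 2840 to 3263 FPKM in those titled control. Of the 9 markers 4 were higher by title and none lower, namely Krt1 (80.6 ± 36.5 FPKM in libraries titled mutant and 19.9 ± 3.43 FPKM in those titled control, SD, n = 4 each, limma adjusted p = 0.00334), Krt10, Krt15 and Trp63. Fibroblast markers gave 116.49 to 149.73 FPKM in libraries titled mutant, against 105.27 to 124.20 FPKM in those titled control (1 of 5 tested higher). Melanocyte markers gave 35.9 to 37.8 FPKM in libraries titled mutant, against 50.4 to 61.5 FPKM in those titled control (4 of 4 lower), and hair matrix and placode markers 124.01 to 148.21 FPKM in libraries titled mutant, against 105.39 to 111.11 FPKM in those titled control (1 higher and 1 lower of 3). Myeloid markers gave 8.52 to 9.61 FPKM in libraries titled mutant, against 5.52 to 8.24 FPKM in those titled control, with Cd207 at 0 in all libraries. The T cell list gave 8.61 to 12.8 FPKM in libraries titled mutant, against 1.09 to 2.4 FPKM in those titled control, a sum made almost wholly of Thy1, which other cells also express, with Cd3e and Trdc under 1 FPKM and Cd3g at 0 in all libraries. Endothelial and muscle markers summed to no more than 2.02 FPKM, and erythroid markers lay at 12.25 to 69.88 FPKM in libraries titled mutant, against 12.49 to 93.70 FPKM in those titled control. In each group 1 library was male by Y-linked genes, and relative read depth was 0.841 to 0.915 in libraries titled mutant, against 0.942 to 1.033 in those titled control. Their part in the member results was not tested.

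Whether Sas-4 loss acted on the members differently at the 2 stages was tested by the difference itself, the P0 effect minus the E13.5 effect, over the 11858 genes tested at both. With E13.5 groups by title, 16 members differed (15 lower and 1 higher at P0), beside 46.4% of all genes (31.8% lower). With E13.5 groups by column name, 12 differed (11 lower and 1 higher), beside 32.8% of all genes (25.2% lower). Under both groupings 7 members differed, namely Rad51d, Rad54b, Fancg, Fancl, Fancd2, Rbbp8 and Chek1, of which Rad51d changed its direction with the grouping. The share of all genes that differed under both groupings is not given here, so the 7 are not set against it.

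Rad54b had the largest difference by title, -0.93 (SE 0.10, limma adjusted p = 3.29e-06), and -0.46 by column name (adjusted p = 0.00337). Fancg followed at -0.89 by title (SE 0.10, limma adjusted p = 5.59e-06) and -0.43 by column name (adjusted p = 0.0058). Rbbp8 and Chek1, which were not called at E13.5, differed under both groupings, with -0.36 and -0.56 for Rbbp8 (limma adjusted p = 0.00488 and 0.000318) and -0.54 and -0.60 for Chek1 (0.00221 and 0.00174), by title and by column name in that order. For Rad51d the difference was 0.33 by title and -0.43 by column name (limma adjusted p = 0.0249 and 0.0085). Chek2, lower at P0 and by title also at E13.5, differed only by column name (-0.79, limma adjusted p = 0.00061), and Brca1 only by title (-0.62, limma adjusted p = 0.000945). Brca2 was the 1 member whose effect was higher at P0 by column name (0.86, limma adjusted p = 0.00942), against 0.29 by title (0.307). Median-of-ratios scaling lowered the counts to 9 by title and 6 by column name. The shares of all genes under that scaling are not given here, so these counts are not compared with them.

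**Figure D4:**
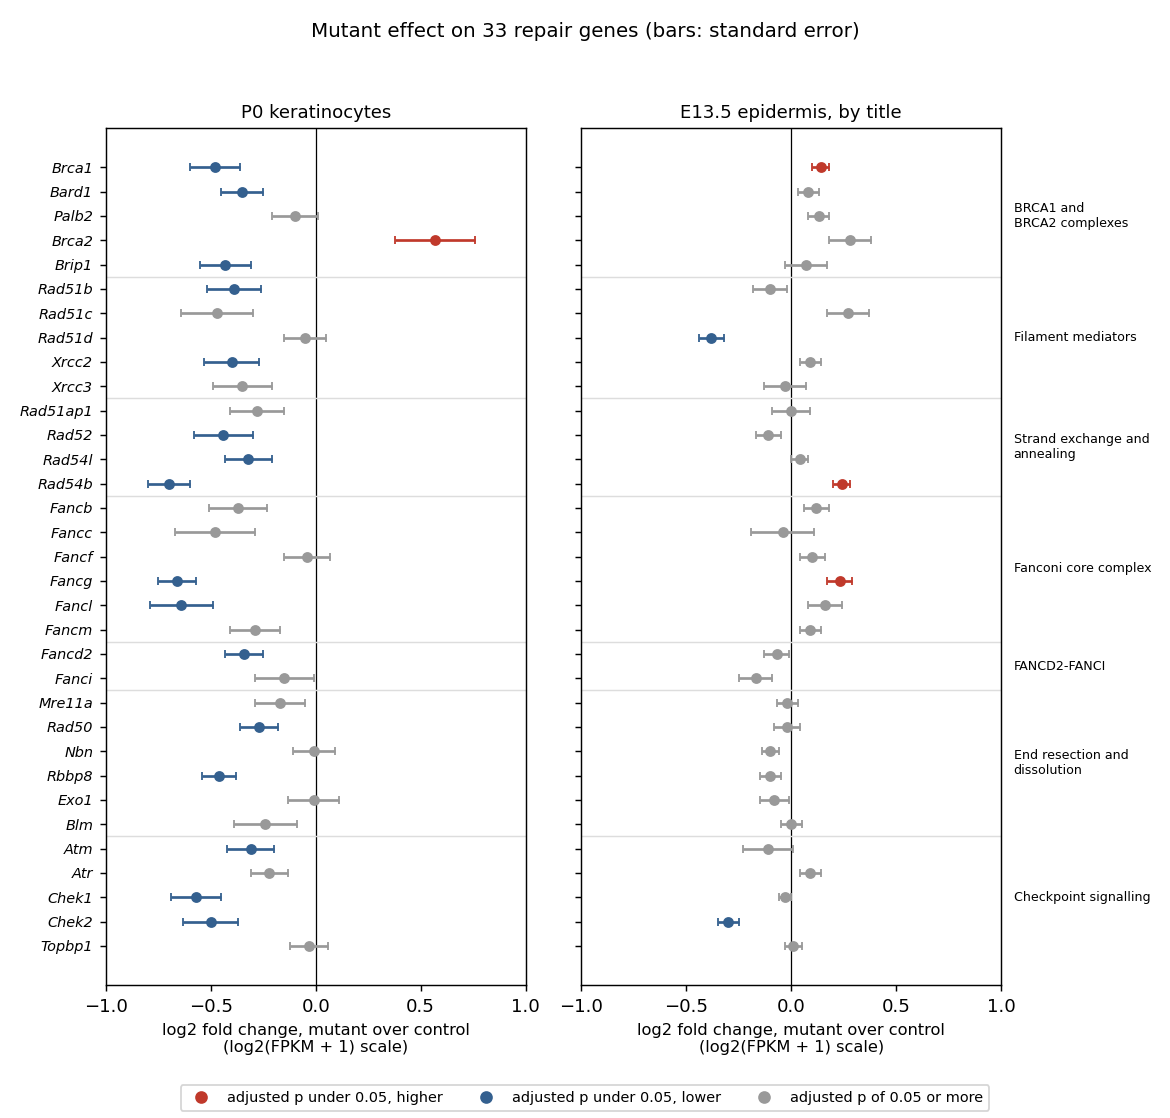
The log2 fold change of mutant over control (horizontal axes, on the log2(FPKM + 1) scale, bars show the standard error of limma) is drawn for the 33 members by role, P0 left and E13.5 by title right. At P0 all but Brca2 lie left of 0, with 16 lower calls, and at E13.5 the members lie on both sides of 0 with 3 higher and 2 lower calls, which change sides by column name.

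The members were less abundant in newborn keratinocytes than in embryonic epidermis. The tables were normalized separately and the preparations differ, so the levels are set side by side with no test. Mean FPKM in P0 controls was below that in E13.5 libraries titled control for 32 of 33 members, with a median ratio of 0.569, against 0.866 for all genes tested at both stages, of which 62.6% were lower in P0 controls. With the E13.5 controls taken by column name these values were 31 of 33 members, a median ratio of 0.54, 0.874 for all genes and 62.0%. All 8 P0 libraries lay below all 8 E13.5 libraries for 27 members, beside 35.1% of all genes, a count that does not depend on how the E13.5 groups are named.

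Exo1 was the furthest apart under either naming of the E13.5 groups, at 13.7 FPKM in P0 controls and 52.2 FPKM in E13.5 libraries titled control (ratio 0.263, or 0.277 by column name). Rad51c followed under both, at 3.11 FPKM in P0 controls and 7.94 FPKM in E13.5 libraries titled control (0.392, or 0.321 by column name). Fancc, at 6.62 FPKM in P0 controls and 6.32 FPKM in E13.5 libraries titled control, was the single member above 1 by title (1.05, or 1.11 by column name). By column name Rad51d was above 1 as well (1.05, against 0.787 by title), and Fancg moved to 0.712, against 0.847 by title. Within a stage the members ranged widely, with means over the 8 libraries from 1.88 to 52.6 FPKM at P0 (median 7.8) and from 2.99 to 82.5 FPKM at E13.5 (median 11), Fancf lowest and Topbp1 highest at both. At P0, 13 members lay under 5 FPKM on average, where few reads back each value, against 1 at E13.5.

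**Figure D5:**
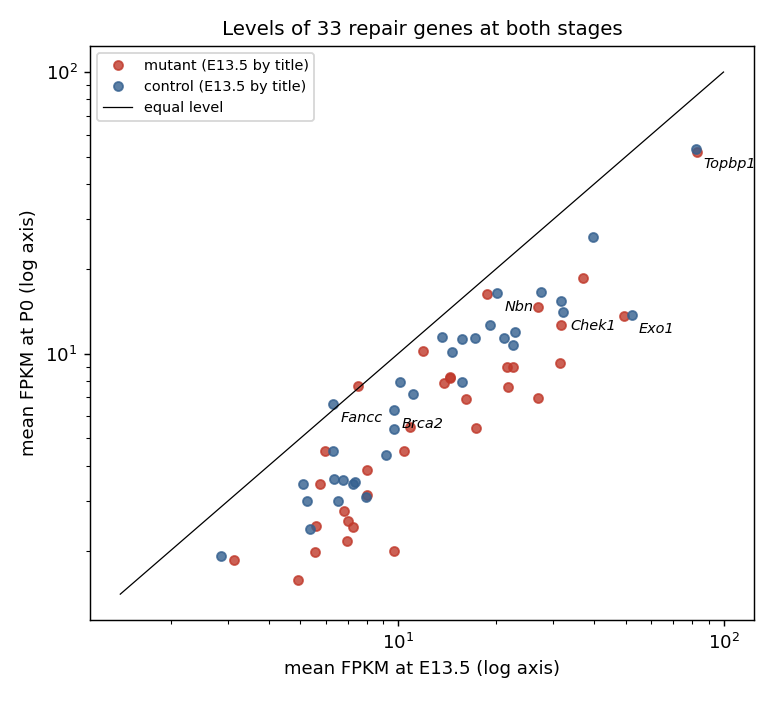
Mean FPKM at P0 (vertical log axis) is plotted against mean FPKM at E13.5 (horizontal log axis) for the 33 members, mutants in red and controls in blue (n = 4 libraries each, E13.5 by title), with a line of equal level. Nearly all points lie below the line, Exo1 far below it, and the Fancc control point, 6.62 against 6.32 FPKM, and the Rad51d mutant point, 7.65 against 7.54 FPKM, just above it.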

How the data were processed

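Total RNA from the 16 libraries was sequenced, and the authors deposited 1 table of FPKM values per stage, made with the QuickNGS pipeline on mouse build mm10. FastQC 0.11.5 and bcl2fastq, in versions 2.17.1.14 and 2.18.0.12, are listed in the submitters' processing notes. Not given in the sources used here are the aligner, counting settings and library strand. The deposited FPKM values are not counts, so read depth is known only relative to control 1 of each stage, from the steps of values under 0.2 FPKM. Precision therefore rests on the spread between libraries. Fold changes, standard errors and p-values were computed from these values, two-sided, with limma 3.58.1 in R 4.3.3 (log2 of FPKM plus a pseudocount of 1, mean trend, no covariate) over genes with at least 1 FPKM in 4 of 8 libraries, after the fit recovered known changes in simulated data. A pooled fit over both tables gave the difference between stages. No member fell under the filter, so no separate test of low members was made.

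The members, the related and marker lists and the rule for named genes were chosen with earlier results of these data known. By that rule, values in every library were given for at most 10 members per stage by smallest adjusted p among called members whose groups did not overlap, and at most 4 genes were named per related list. Brca2 at P0, and members or genes described outside this rule were added after their values were seen. Alternatives were pseudocount 0.1, a filter raised to 5 FPKM on average or removed, median-of-ratios and quantile scaling, array weights, no mean trend, a replicate block, a sex term, leaving out libraries, Cre-carrying controls only, and leaving out label number 67. Exonic overlap was read from GENCODE M21, in which 34 members were found, and promoters from RefSeq GRCm38.p6. The E13.5 titles and column names disagree on genotype, and the labels do not say which is right. At P0, where titles and column names agree, Cenpj was lower and Cdkn1a higher in mutants. The E13.5 libraries that the column names call mutant showed the same directions for both genes. A gene of the related lists is not reported here.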

Additional observations from a re-analysis of the deposited data

Results flagged for a closer look

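In 132 groups of 4 libraries, 6 held a library whose value stood far from the other 3 by Dixon's criterion, and chance alone gives about 1 in 20 groups. At P0, Fancd2 in control 4 was 3.97 FPKM, against 3.30 to 3.39 FPKM in the other controls, and Nbn in control 1 was 18.96 FPKM, against 15.42 to 15.56 FPKM. At E13.5, Brca2 in library 4 titled mutant was 10.63 FPKM, against 12.33 to 12.41 FPKM in the others of its group, and Xrcc3 in library 2 titled mutant was 13.52 FPKM, against 9.96 to 10.12 FPKM. Among libraries titled control, Fancc in library 3 was 9.10 FPKM, against 5.21 to 5.54 FPKM, and Fanci in library 2 was 7.74 FPKM, against 9.61 to 9.70 FPKM. The 6 values came from 6 different libraries.

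The mutant effect differed between the stages (P0 effect minus E13.5 effect on the log2 scale, limma adjusted p under 0.05) for the following members. With E13.5 groups by title, the BRCA complex genes gave -0.62 for Brca1, -0.43 for Bard1 and -0.51 for Brip1. The filament mediators gave -0.73 for Rad51c, -0.49 for Xrcc2 and 0.33 for Rad51d, the only positive value by title. The strand exchange genes gave -0.36 for Rad54l and -0.93 for Rad54b. The Fanconi genes gave -0.49 for Fancb, -0.89 for Fancg, -0.79 for Fancl, -0.38 for Fancm and -0.27 for Fancd2. Rbbp8 was at -0.36, Atr at -0.31 and Chek1 at -0.54.

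With E13.5 groups by column name, Brca2 was at 0.86, the only positive value. Rad51b was at -0.49, Rad51d at -0.43, Rad52 at -0.55 and Rad54b at -0.46. Fancg was at -0.43, Fancl at -0.48, Fancd2 at -0.41 and Rad50 at -0.29. Rbbp8 was at -0.56, Chek1 at -0.60 and Chek2 at -0.79. Members differed under both groupings in 7 cases, by title only in 9, by column name only in 5 and under neither in 12. The matching shares of all genes are not given here.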

How the results depend on the processing

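The P0 count of 17 members called fell to 7 with median-of-ratios scaling, 6 with quantile normalization, 10 without the filter, 11 of the 20 members with a mean FPKM of at least 5, and 5 with only the Cre-carrying controls. Calls among all genes were 5515 of 13033 in the main fit, 4979 with median-of-ratios scaling and 4787 with quantile normalization. They were 6372 of 27586 without the filter, 3688 of 9444 at a mean of at least 5 FPKM, and 3002 of 13033 with only the Cre-carrying controls. With median-of-ratios scaling and without mutant 4, chosen after seeing the data, the member count was 9, beside 6028 of all genes. Leaving out each library in turn gave 9 members (without control 4) to 18 (without mutant 4), with 10 without control 2 and 11 without mutant 3. In that order, the calls among all genes were 4486, 6451, 4401 and 4743. Fewer controls or fewer genes enter some of these fits by construction, and otherwise the cause was not tested. At E13.5 the 5 calls by title became 8 with array weights and 3 without label number 67, and leaving out each library gave 4 to 7. Calls among all 12866 genes tested were 3243 in the main fit, 3963 with array weights and 1267 without label number 67. Leaving out each library gave 2196 to 3283 of all genes. The 16 stage differences by title became 9 with median-of-ratios scaling and 7 with quantile normalization, and the 12 by column name became 6 and 4. The shares of all genes in these scaled stage fits are not given here, so no comparison with them is made.

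No called member reversed its direction in any alternative in which it was fitted. Over all alternatives, called members kept the call in 221 of 317 fits at P0 and 80 of 90 at E13.5. Same-numbered libraries showed little joint deviation (correlations -0.024 to 0.111 at P0 and -0.014 to 0.068 at E13.5). With 4 libraries per group these correlations cannot exclude a pairing, such as shared litters. At P0 the column names carry 63 and 64 for mutant 1 and control 1, and 76 and 77 for mutant 4 and control 4. What these numbers stand for is not stated. With the replicate block, 17 members were called at P0, 14 of them also without it, and 5 at E13.5, 4 of them also without it. All genes called with the block numbered 5130 of 13033 at P0 and 2766 of 12866 at E13.5. Low FPKM limits the 13 members under 5 FPKM at P0, and median-of-ratios scaling and quantile normalization assume that most genes, or the whole distribution, did not change.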
